A study of Mus musculus with 6 samples.

Results

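Cytosolic ribosomal protein genes were compared between CK2α-cKO and wild-type marginal zone B cells of the mouse spleen. They were taken as the genes of the deposited table whose Ensembl identifier maps in GENCODE M21 to a protein-coding symbol of the form Rpl or Rps followed by a digit, or to Rplp0, Rplp1, Rplp2 or Rpsa, leaving out the Rps6k kinases, Rps19bp1 and pseudogenes. There were 82 of them among 14864 genes. Of the 82, 46 encode standard proteins of the 60S subunit, 31 standard proteins of the 40S subunit, and 5 (Rpl7l1, Rpl22l1, Rpl36al, Rps27l and Rps27rt) are second genes related to a standard one. Another 3 genes that meet the rule in the annotation, Rpl3l, Rpl10l and Rpl39l, were not analysed here.

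Ribosomal protein genes encode the protein part of the ribosome, the particle that reads mRNA and joins amino acids into protein. A small subunit, 40S, decodes the mRNA, and a large subunit, 60S, forms the peptide bonds. Ribosomal protein mRNAs are among the most abundant in a cell, and many begin with a cytidine followed by a run of pyrimidines, the terminal oligopyrimidine (TOP) tract, through which the kinase complex mTORC1 and the RNA-binding protein LARP1 control their translation. Marginal zone B (MZB) cells lie at the border of the splenic white pulp and turn quickly into antibody-secreting cells when blood-borne antigen arrives.

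The study measured mRNA in MZB cells flow-sorted from the spleens of C57BL/6 mice aged 8 weeks, with 3 libraries from CK2α-cKO mice (conditional knockout, cKO) and 3 from wild-type (WT) mice. CK2α is a catalytic subunit of the protein kinase CK2, encoded by Csnk2a1. The sources used here do not give the Cre line, the exons deleted, the gates of the sort or what the WT mice carried at the Cre and floxed loci, and they name no sex, litter or batch. Nothing in the labels says that each library came from its own mouse, so the error behind each p-value is that between libraries and could be partly technical.

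A value below is a normalised read count, that is, the reads of a gene divided by a factor for its library. The libraries held 18778776 to 23503756 reads over the genes of the table, and a member had at least 103 reads in every library. All 82 thus passed the filter (a mean of at least 10) and were tested together with the other genes, 14855 in all. Csnk2a1 had 4124, 3951 and 4060.4 in the cKO libraries, against 4069, 3861 and 3939 in the WT libraries, a log2 difference (cKO minus WT) of 0.03 ± 0.05 (± SE, as after every log2 difference below; limma adjusted p = 0.734). Its gene-level value was thus not lower in the libraries labelled cKO, and a count over the whole gene does not resolve a deleted exon. The defining T cell genes Cd3d, Cd3e, Cd3g, Thy1 and Trac and the neutrophil genes Elane, Ly6g, Mpo and Retnlg were not analysed here, and 0 of 8 B cell identity genes passed the limma test in either direction (3 at an unadjusted p under 0.05, 0 by edgeR and 2 by DESeq2).

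All 82 ribosomal protein genes had a higher mean in cKO than in WT MZB cells, and the difference was small: the median was 16.6%, with a range of 2.88% for Rplp2 to 31.2% for Rpl24. On the log2(value + 1) scale the median difference was 0.22, against -0.00086 over all genes tested. In the limma fit over all genes, 42 of the 82 rose in cKO MZB cells and 0 fell at a Benjamini-Hochberg adjusted p under 0.05, where 5.08% of all genes tested were called higher in cKO and 4.97% lower. No member was lower at an unadjusted p under 0.05, by edgeR or by DESeq2. A further 20 had an adjusted p between 0.05 and 0.1, and 70 had an unadjusted p under 0.05. The threshold cuts through a continuous range: Rpl37 (adjusted p = 0.0499) and Rps14 (0.0497) lay just inside it and Rps27l (0.0508) just outside, the first 2 named here only for that place. For 68 of the 82 the lowest cKO library stood above the highest WT library, against 15.9% of all genes tested. The 14 whose groups overlapped included Rplp2, Rps27, Rps27rt, Rps24, Rps19 and Rpsa.

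**Figure D1:**
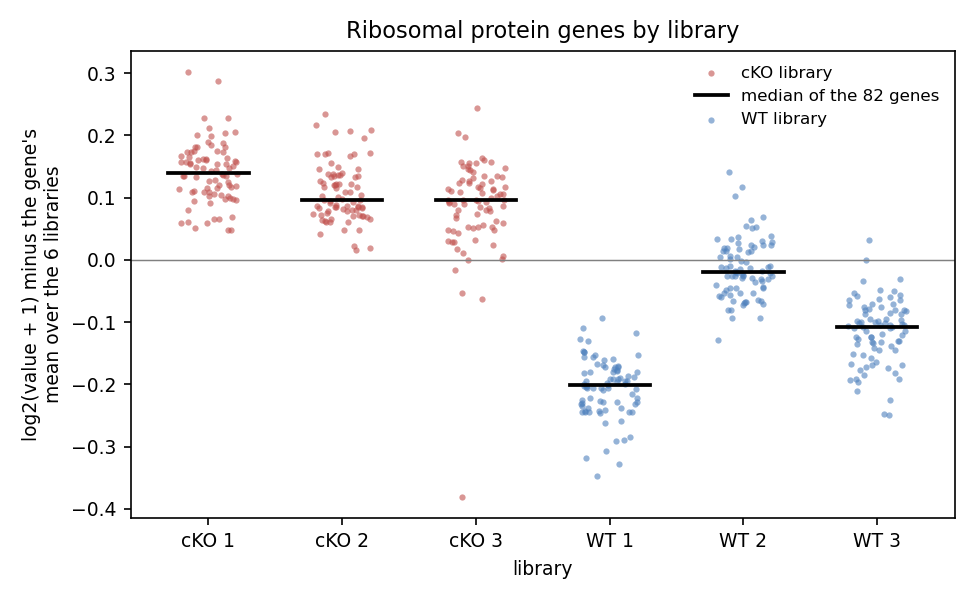
Each point is 1 of the 82 ribosomal protein genes in 1 library, as log2(value + 1) minus that gene's mean over the 6 libraries (vertical axis), with the 3 cKO libraries left of the 3 WT libraries and the median of the 82 genes as a bar. The medians were 0.14, 0.10 and 0.10 in the cKO libraries and -0.20, -0.02 and -0.11 in the WT libraries.

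Ribosomal protein mRNA was summed over the 82 genes and taken as a share of the reads over all genes of the table. It made up 8.27%, 8.10% and 8.14% in cKO replicates 1, 2 and 3, against 6.66%, 7.55% and 7.11% in WT replicates 1, 2 and 3. The groups did not overlap, and the means were 8.17 ± 0.0876% in cKO and 7.11 ± 0.444% in WT (SD, n = 3 each). Counting error was far below these gaps, since the 95% Wilson interval of a library's share was at most 0.0239 percentage points wide; intervals cover counting error only. Without immunoglobulin genes in the total, the shares averaged 8.26 ± 0.0851% in cKO and 7.18 ± 0.453% in WT. Reads assigned to the 68 ribosomal protein pseudogenes of the table came to 0.222% to 0.239% of the members' reads in each library. In bulk RNA, more RNA of a kind per cell and more cells of a type rich in it cannot be told apart, and every value here is relative to the rest of its library.

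The genes moved as a block from library to library. WT replicate 1 had the lowest value of the WT libraries for 79 of the 82 genes and WT replicate 2 the highest for 77, and 74 genes followed the same order of all 3 WT libraries. WT replicate 1 was the lowest of all 6 libraries for 78 genes, and cKO replicate 1 the highest for 51. The WT order was not particular to these genes. Median deviations from a gene's mean over all 6 libraries were -0.19, -0.0040 and -0.10 in WT replicates 1, 2 and 3 for nuclear-encoded respiratory chain genes. They were -0.15, -0.0092 and -0.067 for proteasome genes, and 0.0041, 0.0031 and 0.0037 over all other genes tested. The lists below on escorts, control of TOP mRNAs and quality control did not follow that order. The 3 cKO libraries lay closer together than the 3 WT libraries: the median coefficient of variation of a member was 2.76% in cKO and 6.63% in WT, beside 8.68% and 8.01% over all genes tested. The number of genes called depended on which libraries were in the fit. Leaving out cKO replicate 1 gave 11 members (3.07% of all genes called higher), leaving out cKO replicate 2 gave 35 (5.3%), and leaving out cKO replicate 3 gave 4 (1.66%). Leaving out WT replicate 1 gave 6 members (1.95%), leaving out WT replicate 2 gave 51 (3.96%), and leaving out WT replicate 3 gave 3 (1.76%). The median log2 difference of the 82 genes stayed between 0.18 (without WT replicate 1) and 0.28 (without WT replicate 2) in these fits. Rpl24 and Rps26 were the only members called in all 6 of them, and 31 were called in none.

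**Figure D2:**
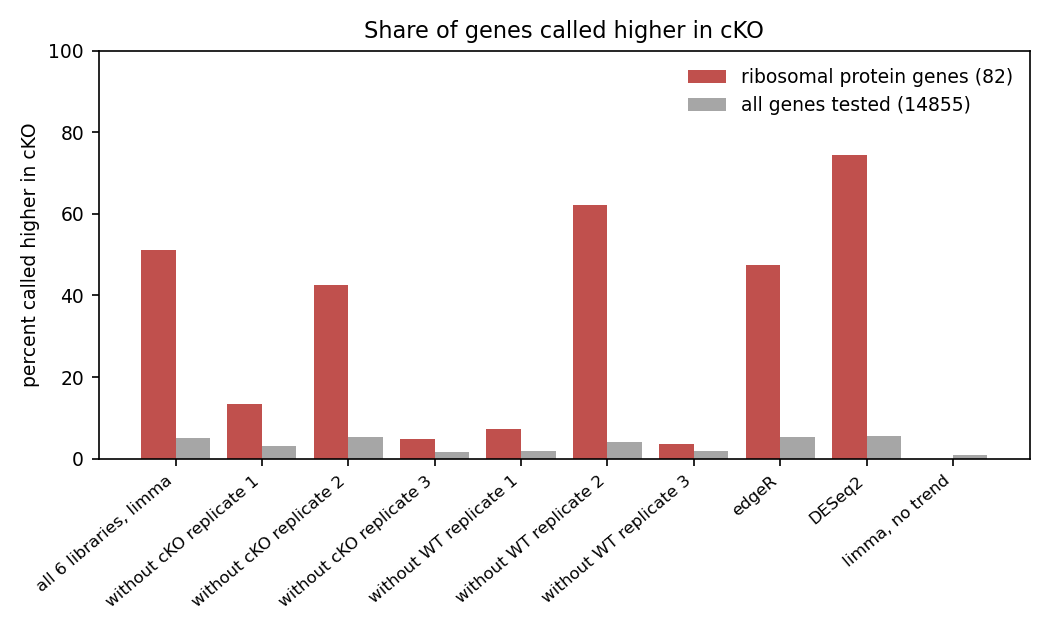
Percent of the 82 ribosomal protein genes (red) and of all 14855 genes tested (grey) called higher in cKO at an adjusted p under 0.05, from 0 to 100%, in the limma fit of all 6 libraries, in the 6 fits with 1 library left out, by edgeR, by DESeq2 and by limma without a variance trend. The red bar was highest by DESeq2, at 61 of 82 genes, and absent without the trend.

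The tool mattered as well. edgeR's quasi-likelihood test on the recovered reads called 39 of the 82 genes higher in cKO (5.27% of all genes), and DESeq2 called 61 (5.55% of all genes). limma without the trend of variance on level called 0 of the 82 (0.801% of all genes higher), although 60 had an unadjusted p under 0.05 there. All 82 differences were above 0 under each scaling tried, which were equal library totals, upper quartile, trimmed means and DESeq2 size factors.

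Sequence at the transcription start was examined in the promoter table of RefSeq (GRCm38.p6), which held 62 of the 82 genes. The window ran from 10 bases before the annotated start to 20 bases after it, and a tract was counted where a C was followed by at least 6 more C or T on the sense strand. Such a tract stood in 29 of 62 ribosomal protein genes (46.8%), in 17.1% of the 9962 genes of the table that had an entry, and in 15.6% of all 27025 genes of RefSeq's table. Among the members it was in 11 of 29 genes that rose (37.9%) and in 18 of 33 not called (54.5%). The windows of 4 genes that rose and 4 not called are printed 5′ to 3′, with the tract in capitals, because tracts were found in genes of either kind.
Rps26 (chr10:128626487-128626516, minus strand): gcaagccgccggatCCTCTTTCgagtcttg
Rpl15 (chr14:18270967-18270996, minus strand): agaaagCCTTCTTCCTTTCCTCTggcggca
Rpl22l1 (chr3:28805498-28805527, plus strand): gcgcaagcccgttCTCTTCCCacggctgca
Rps6 (chr4:86857348-86857377, minus strand): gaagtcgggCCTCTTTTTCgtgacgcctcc
Rps24 (chr14:24490668-24490697, plus strand): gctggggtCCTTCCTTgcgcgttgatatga
Rpl13a (chr7:45128726-45128755, minus strand): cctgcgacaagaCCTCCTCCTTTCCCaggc
Rps27 (chr3:90213629-90213658, minus strand): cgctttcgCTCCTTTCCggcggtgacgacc
Rplp2 (chr7:141447641-141447670, plus strand): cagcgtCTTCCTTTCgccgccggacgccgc
The first 4 rose in cKO MZB cells and the last 4, ending with the gene of the smallest difference, were not called. A tract is a run of letters near an annotated start, and whether transcripts in these cells begin on it was not measured.

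The hexamer CGGAAG, the core letters of sites bound by ETS-family factors such as GABP, was searched on both strands over 250 bases before the start to 50 bases after it. It was present in 42 of 62 ribosomal protein genes (67.7%), in 35.6% of the genes of the table and in 18.8% of all genes of RefSeq's table. Among the members it was in 21 of 29 that rose (72.4%) and 21 of 33 not called (63.6%). The sense-strand hexamer CTTTCC, whose letters can lie inside a tract, was in 26 of 62 members (41.9%), 17.3% of the genes of the table and 16.0% of all genes over the same span. Among the members it was in 15 of 29 that rose (51.7%) and 11 of 33 not called (33.3%). Windows from 10 bases before to 20 bases after the start are shown for 3 genes that rose and held CGGAAG there, in capitals, as examples of its place.
Rpl26 (chr11:68901556-68901585, plus strand): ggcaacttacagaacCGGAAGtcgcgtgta
Rpl41 (chr10:128549149-128549178, minus strand): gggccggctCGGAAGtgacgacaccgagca
Rpl11 (chr4:136053374-136053403, minus strand): ccataaggccacggggcCGGAAGtctccct
A match is a description of the letters and not evidence of a bound factor.

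Among the 14 proteins of the head of the 40S subunit, 4 rose in cKO MZB cells and 0 fell, with a median log2 difference of 0.22. Rps27a, which is made as a fusion with ubiquitin, had 16952, 15856 and 16989 in the cKO libraries, against 12067, 14100.0 and 13293 in the WT libraries. It rose by 0.34 ± 0.07 on the log2 scale (SE; limma adjusted p = 0.0127). Rps25, a protein that some internal ribosome entry sites need, had 15567, 15688 and 14901 in the cKO libraries, against 12085, 13428 and 12394 in the WT libraries, and rose by 0.29 ± 0.06 (adjusted p = 0.0151). Every cKO library stood above every WT library for both genes. Rps12 had 26402, 25665 and 27399 in the cKO libraries, against 21017, 24267 and 23276 in the WT libraries, with no overlap, and its difference of 0.22 ± 0.07 was not called (adjusted p = 0.0658). Rps19, the gene most often mutated in human Diamond-Blackfan anaemia, a failure of red cell formation, had 19782, 19153 and 18253 in the cKO libraries, against 15908, 18401 and 16969.8 in the WT libraries. The lowest cKO library was below WT replicate 2, and the difference of 0.16 ± 0.07 was not called (adjusted p = 0.151).

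The other 17 proteins of the 40S subunit included 7 that rose and 0 that fell, with a median of 0.19. Rps26, which lies where mRNA leaves the 40S subunit, had 16878, 16469.6 and 16773 in the cKO libraries, against 11734, 14055 and 12769 in the WT libraries. It was 30% higher in cKO, a log2 difference of 0.38 ± 0.07 (95% interval 0.23 to 0.53; adjusted p = 0.00800), and with WT replicate 3 left out, the least favourable fit, its adjusted p was 0.0433. Rps6, the classical substrate of the S6 kinases, had 23481, 22653 and 23260.5 in the cKO libraries, against 18790.3, 20598 and 19957 in the WT libraries. The groups were apart, and Rps6 rose by 0.23 ± 0.06 (adjusted p = 0.0336). Rpsa, mutated in human isolated congenital asplenia, had 44271, 41498 and 42874 in the cKO libraries, against 37106, 41771 and 39284 in the WT libraries. Its WT replicate 2 exceeded cKO replicate 2, and the difference of 0.12 ± 0.07 was not called (adjusted p = 0.260). Rps24 had 30215, 29298 and 28381 in the cKO libraries, against 24770.4, 28558 and 26577 in the WT libraries, and WT replicate 2 exceeded cKO replicate 3 (difference 0.14 ± 0.07; adjusted p = 0.208).

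**Figure D3:**
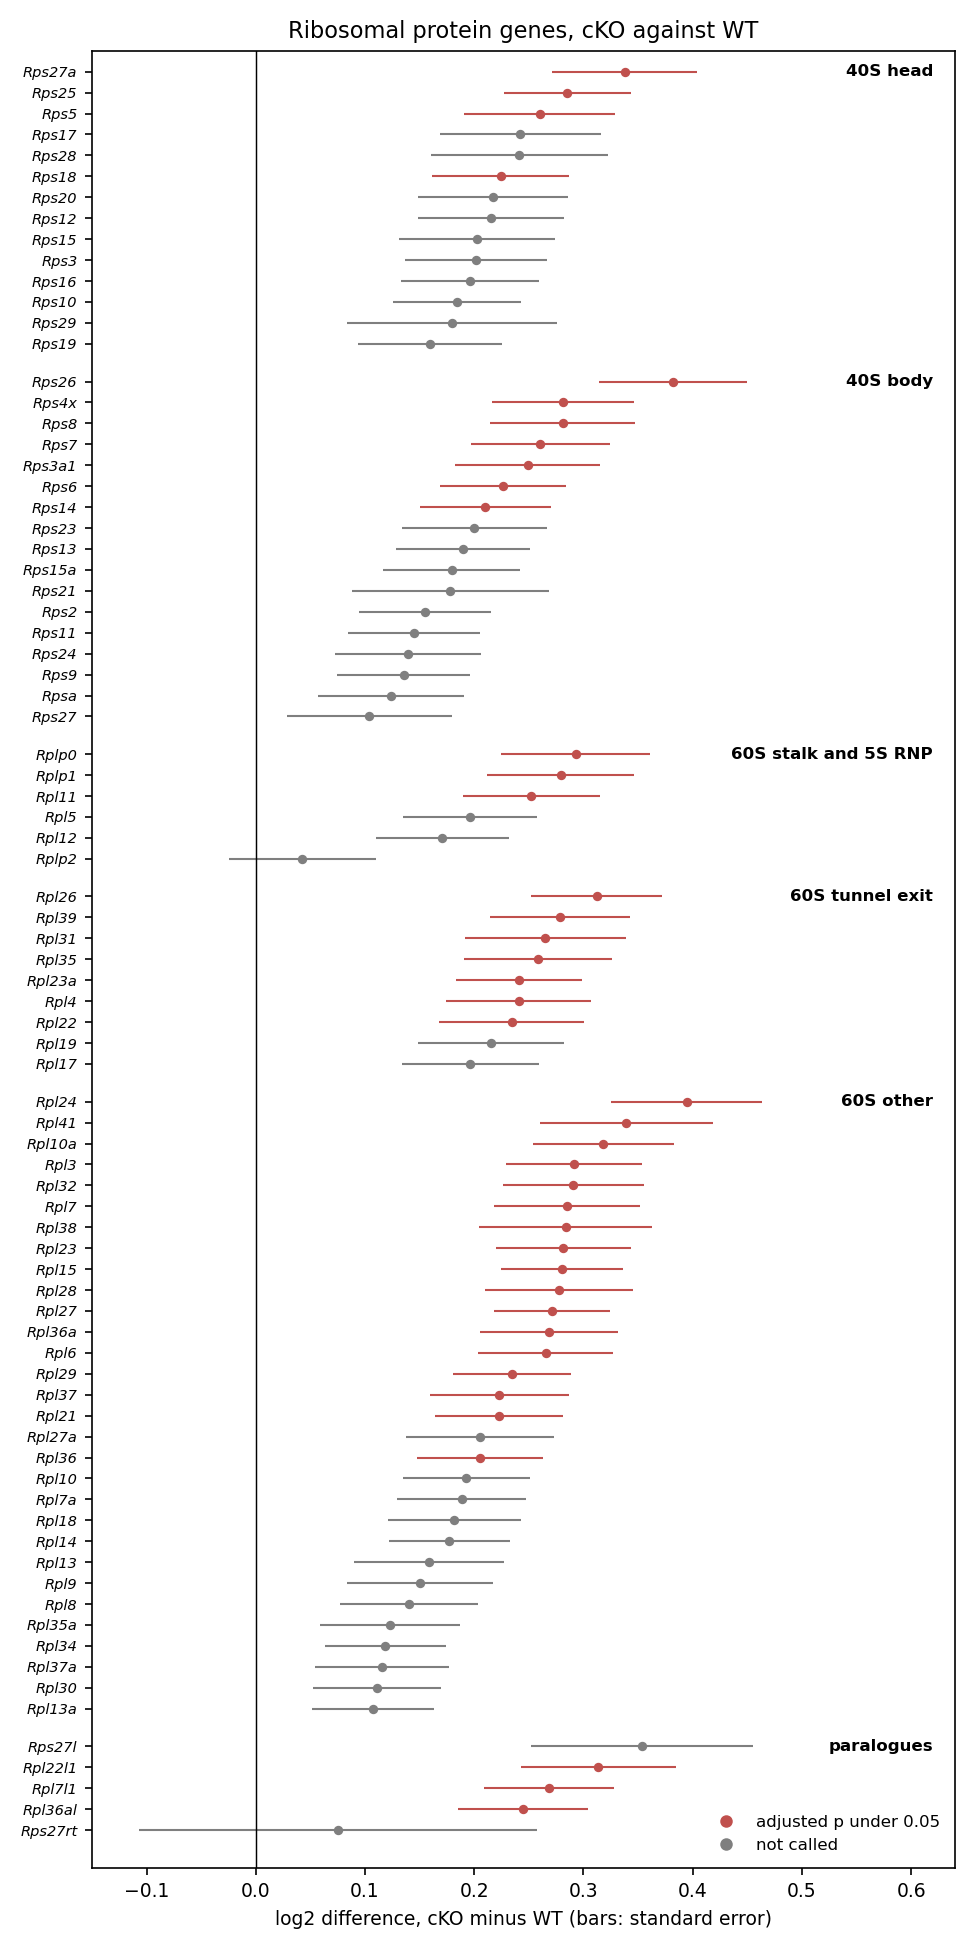
Difference between cKO and WT (log2 scale, horizontal axis) for 81 ribosomal protein genes, by place in the ribosome, with bars of 1 standard error from limma over 3 cKO and 3 WT libraries and the genes called in red. All 81 points lie right of 0, between 0.04 (Rplp2) and 0.39 (Rpl24).

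On the 60S subunit, the P stalk recruits the translation factors, and Rpl5 and Rpl11 form a particle with 5S rRNA that can bind the p53 regulator MDM2. Of these 6 genes 3 rose and 0 fell, with a median of 0.22. Rplp0, the base of the stalk, had 50641, 47528 and 49804 in the cKO libraries, against 37623, 42607 and 40681 in the WT libraries, and rose by 0.29 ± 0.07 (adjusted p = 0.0244). Rplp1 had 34676, 33448 and 33518 in the cKO libraries, against 25958, 30149 and 27803 in the WT libraries, and rose by 0.28 ± 0.07 (adjusted p = 0.0270). Its partner in the stalk, Rplp2, had 14319, 13614 and 12925 in the cKO libraries, against 12428, 14392 and 12894 in the WT libraries. The cKO values lay within the range of the WT values, and the difference of 0.04 ± 0.07 was the smallest of the 82 (95% interval -0.11 to 0.19; adjusted p = 0.736). The ratio of Rplp2 to Rplp1, set up after the values were seen, was 0.413, 0.407 and 0.386 in the cKO libraries and 0.479, 0.477 and 0.464 in the WT libraries. Every cKO ratio lay below every WT ratio, and no test is given because the pair was picked for its values. Rpl11 had 21057, 21209 and 20873 in the cKO libraries, against 16428, 18970.0 and 17705 in the WT libraries, and rose by 0.25 ± 0.06 (adjusted p = 0.0309). Rpl5 had 26425, 24788 and 25123 in the cKO libraries, against 21159, 23458 and 22042 in the WT libraries, also without overlap, but its difference of 0.20 ± 0.06 was not called (adjusted p = 0.0665).

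The 9 proteins that line or ring the exit of the peptide tunnel included 7 that rose and 0 that fell, with a median of 0.24. Rpl26, which lies beside the tunnel exit, had 16939.8, 16875 and 16825 in the cKO libraries, against 12653, 14426 and 13764 in the WT libraries. Its cKO libraries were nearly alike (SD 57.7) and all above the WT libraries, and it rose by 0.31 ± 0.06 (adjusted p = 0.0114). Rpl22, an RNA-binding protein whose loss blocks αβ T cell development in mice, had 9939, 9393 and 9609.9 in the cKO libraries, against 7559, 8978 and 8123 in the WT libraries, and rose by 0.23 ± 0.07 (adjusted p = 0.0481).

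Of the other 31 proteins of the 60S subunit 18 rose and 0 fell, with a median of 0.22. Rpl24, the gene mutated in the Belly spot and tail mouse, had 3676, 3484 and 3757 in the cKO libraries, against 2493, 2900.3 and 2929.7 in the WT libraries. It was 31.2% higher in cKO, the largest difference of the 82, at 0.39 ± 0.07 (95% interval 0.24 to 0.55; adjusted p = 0.00753). Its lowest cKO library exceeded its highest WT library, and its least favourable adjusted p was 0.0386, without cKO replicate 3. Rpl41, which encodes a very short basic peptide, had 17024, 17704 and 16724 in the cKO libraries, against 12141, 15379 and 13329.9 in the WT libraries, and rose by 0.34 ± 0.08 (adjusted p = 0.0243). Rpl10a, the protein of the L1 stalk by the exit site of tRNA, had 20399.5, 18701 and 19307 in the cKO libraries, against 14709.8, 16766 and 15416 in the WT libraries, and rose by 0.32 ± 0.06 (adjusted p = 0.0147). None of these genes overlapped between groups. Rpl3, which reaches towards the peptidyl transferase centre, had 37334, 36461 and 37300.2 in the cKO libraries, against 28945, 32129.9 and 29797 in the WT libraries, and rose by 0.29 ± 0.06 (adjusted p = 0.0181). Rpl15 had 10133, 10032 and 10096 in the cKO libraries, against 7805, 8736 and 8397 in the WT libraries. The cKO libraries lay close together, with an SD of 51.3 reads, and above all WT libraries. Rpl15, mutated in some families with Diamond-Blackfan anaemia, rose by 0.28 ± 0.06 (adjusted p = 0.0133).

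Further 60S genes included 3 that rose and 2 that were not called. Rpl27 had 14465, 14658 and 13893 in the cKO libraries, against 11514, 12230.4 and 11907 in the WT libraries, and rose by 0.27 ± 0.05 (adjusted p = 0.0126). Rpl23 rose by 0.28 ± 0.06 (adjusted p = 0.0198), with means of 26986 ± 798 in cKO and 22216 ± 1258 in WT (SD, n = 3 each). Rpl32 rose by 0.29 ± 0.06 (adjusted p = 0.0204), with means of 22955 ± 584 in cKO and 18793 ± 1359 in WT (SD, n = 3 each). Rpl10, the late-joining protein mutated in some human T cell leukaemias, averaged 21512 ± 514 in cKO and 18831 ± 877 in WT (SD, n = 3 each), and its difference of 0.19 ± 0.06 was not called (adjusted p = 0.0584). Rpl13a had 23998, 24600.2 and 23661 in the cKO libraries, against 21739.7, 22163 and 23198 in the WT libraries. These libraries did not overlap, yet the gap was narrow, and the difference of 0.11 ± 0.06 was not called (adjusted p = 0.246).

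**Figure D4:**
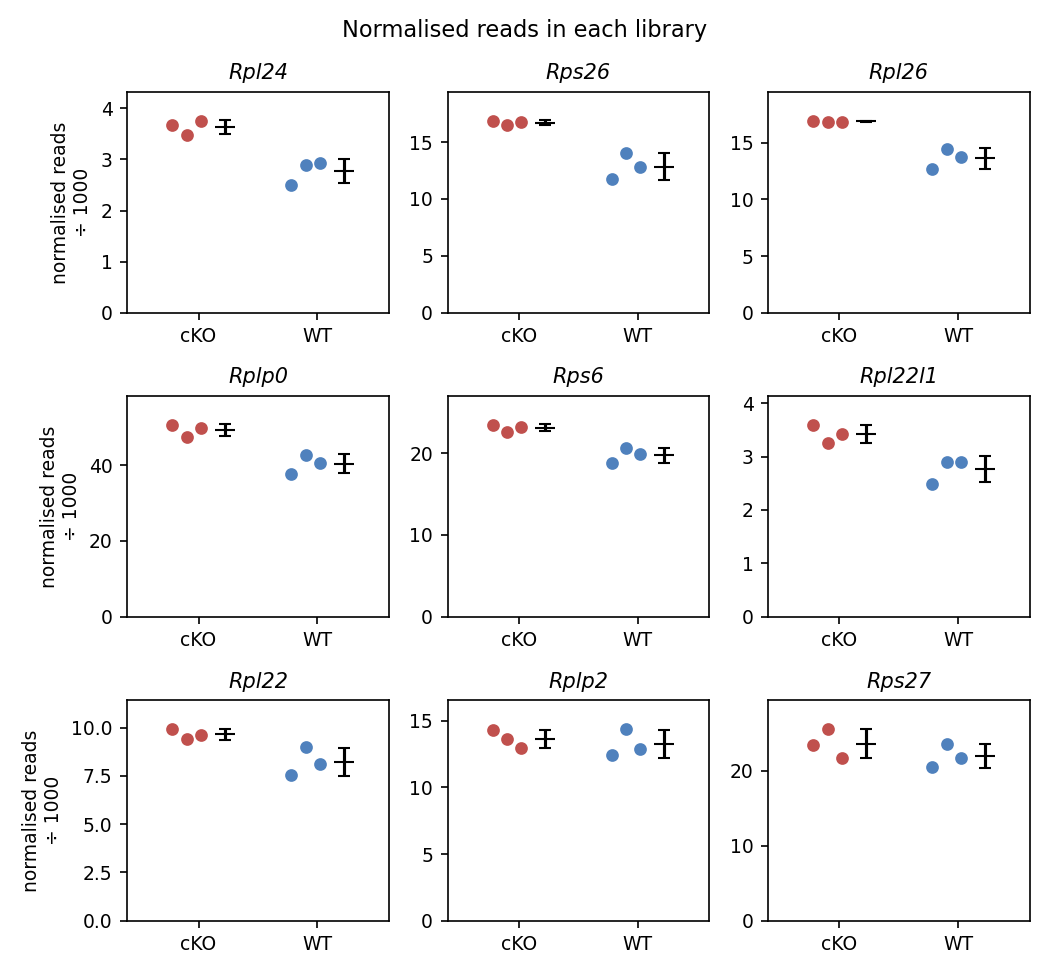
Normalised reads divided by 1000 (vertical axes, from 0) for 9 ribosomal protein genes, with a point for each of the 3 cKO libraries on the left of each panel and the 3 WT libraries on the right, and the mean ± SD as black bars. The groups are apart in 7 panels and overlap for Rplp2 and Rps27.

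By subunit, 11 of 31 standard 40S genes and 28 of 46 standard 60S genes rose, with medians of 0.20 and 0.24. The summed 60S values divided by the summed 40S values gave 1.307, 1.310 and 1.315 in the cKO libraries and 1.303, 1.291 and 1.289 in the WT libraries. The ratio was thus higher in every cKO library, and this ratio was set up with earlier results known, so it has no test. The libraries were also rescaled so that the geometric mean of the 82 genes was the same in each, a comparison added after the values were seen. This scaling centres the differences of the 82 near 0 and shifts all other genes with it. The fit thus describes only how far single members departed from their common change, and limma called 0 of the 82 in either direction. In that fit 28.3% of all genes were called, 3 of the 82 had an unadjusted p under 0.05, the differences ran from -0.18 to 0.17, and the lowest adjusted p was 0.0609, for Rplp2.

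Of the 5 second genes 3 rose and 0 fell, with a median of 0.27. Rpl22l1, which Rpl22 is known to repress in mice, had 3597, 3258 and 3424 in the cKO libraries, against 2481, 2905 and 2899 in the WT libraries, and rose by 0.31 ± 0.07 (adjusted p = 0.0217). Its ratio to Rpl22 was 0.362, 0.347 and 0.356 in the cKO libraries and 0.328, 0.324 and 0.357 in the WT libraries, which overlap. Rpl7l1 averaged 2411 ± 82.9 in cKO and 2002 ± 111 in WT (SD, n = 3 each) and rose by 0.27 ± 0.06 (adjusted p = 0.0204), and its standard gene Rpl7 averaged 25929.5 ± 1138 in cKO and 21297 ± 1459.8 in WT (SD, n = 3 each) and rose by 0.29 ± 0.07 (adjusted p = 0.0243). Rpl36al averaged 3433 ± 147 in cKO and 2899 ± 159 in WT (SD, n = 3 each) and rose by 0.24 ± 0.06 (adjusted p = 0.0277), and Rpl36a averaged 10125 ± 40.3 in cKO and 8424 ± 691 in WT (SD, n = 3 each) and rose by 0.27 ± 0.06 (adjusted p = 0.0246).

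Rps27l, whose human gene is a target of p53, had 556, 479 and 498 in the cKO libraries, against 369, 453 and 379.5 in the WT libraries. Its libraries did not overlap, but the difference of 0.35 ± 0.10 carried a larger error and was not called by limma (adjusted p = 0.0508). It was called higher by edgeR (adjusted p = 0.0489) and by DESeq2 (adjusted p = 0.0374). The standard gene Rps27 had 23457, 25567 and 21728 in the cKO libraries, against 20491, 23566 and 21736 in the WT libraries, with a difference of 0.10 ± 0.08 (adjusted p = 0.410). Its groups overlapped. Rps27rt, a retrogene copy of Rps27, had 169, 160.1 and 106 in the cKO libraries, against 123, 141 and 142 in the WT libraries, the lowest level of the 82. Its difference of 0.08 ± 0.18 was not called (adjusted p = 0.836), and since the copies are nearly identical, how their reads were divided is uncertain. The same uncertainty holds for members with pseudogenes in the table.

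Per kilobase of annotated transcript (the median length over a gene's protein-coding transcripts), members with high levels included Rps27 at 68359.5 in cKO and 63568 in WT, Rplp1 at 67897 in cKO and 56052 in WT, Rps24 at 55806 in cKO and 50734 in WT and Rps12 at 53839 in cKO and 46450.1 in WT. Of these genes Rplp1 rose. When the 82 genes were divided into 3 classes by level, the median log2 difference was 0.24 in the lowest, 0.21 in the middle and 0.21 in the highest, with 17 of 27, 11 of 27 and 14 of 28 called. The exons of 15 members, 9 of them called, overlap exons of another gene of the table. Whether counting used strand is not given in the sources used here, so such reads cannot be told apart. The overlapping partner had fewer reads than the ribosomal protein gene in each case. Arpc5l came nearest, with a mean of 4228 over the 6 libraries beside 11024 for Rpl35, a pair named for this overlap.

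Ribosomal protein mRNAs are short, and the differences of other genes varied with transcript length. When all coding genes were divided into 10 classes of equal number by transcript length, 68 of the 82 lay in the shortest class (up to 1087 bases). The 1106 other genes of that class had a median log2 difference of 0.09, while the other genes of the longest class had a median of -0.06. Of the other genes 6.15% rose and 2.26% fell in the shortest class, against 4.60% and 10.6% in the longest. Over the 10 classes the share that rose ran from 4.60% to 6.75%, beside 5.08% of all genes tested. Among 193 other protein-coding genes under 1000 bases with a mean of at least 1000, the median was 0.11, and 27 rose (14.0%) and 4 fell. The part of length in the difference of the ribosomal protein genes was not tested.

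Some ribosomal proteins carry names outside the rule. Rack1, a scaffold on the 40S head, had 31977, 29331 and 30785 in the cKO libraries, against 24078, 27634 and 26295 in the WT libraries, and rose by 0.24 ± 0.07 (adjusted p = 0.0484). Fau, made as a fusion with a ubiquitin-like protein, averaged 21249 ± 1074 in cKO and 18818 ± 1125 in WT (SD, n = 3 each), with a difference of 0.18 ± 0.06 that was not called (adjusted p = 0.112).

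Of 21 other mRNAs known to carry a TOP tract 7 rose in cKO MZB cells (33.3%, beside 5.08% of all genes) and 0 fell, with a median of 0.16. The differences ran from -0.51 to 0.33, with 3 of the 21 below 0. At an unadjusted p under 0.05 in limma, 11 were higher and 1 was lower. None of the genes called in this list or in those that follow on assembly, host genes, escorts, control and quality control was called in all 6 fits with 1 library left out. Npm1, a nucleolar chaperone, had 17980.1, 16102 and 16949.6 in the cKO libraries, against 12548, 14352 and 13692 in the WT libraries, and rose by 0.33 ± 0.07 (adjusted p = 0.0140). Naca, which binds nascent chains at the tunnel exit, rose by 0.27 ± 0.05 (adjusted p = 0.0142). Eef1b2, an exchange factor of elongation, rose by 0.32 ± 0.07 (adjusted p = 0.0172), and Eif3e, an initiation factor subunit, by 0.25 ± 0.06 (adjusted p = 0.0237). The most abundant were the elongation factors Eef1a1 and Eef2 and the tumour protein Tpt1. Their differences were 0.23 ± 0.08, 0.18 ± 0.07 and 0.16 ± 0.07 with no overlap between groups, and limma called none (adjusted p = 0.107, 0.114 and 0.178). By edgeR Eef1a1 was called higher (adjusted p = 0.0432), and by DESeq2 Eef1a1 and Eef2 were (adjusted p = 0.00260 and 0.0173). Neither tool called Tpt1.

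Of 40 factors of nucleolar ribosome assembly 4 rose (10%, beside 5.08% of all genes called higher) and 0 fell, with a median of 0.09. Nop10 of the pseudouridylating H/ACA particles rose by 0.34 ± 0.07 (adjusted p = 0.0196), and Nop58 of the methylating C/D particles by 0.28 ± 0.06 (adjusted p = 0.0224). Nucleolin, Ncl, had 18209, 17389 and 17435 in the cKO libraries, against 14480.4, 15787 and 15030.0 in the WT libraries, and rose by 0.23 ± 0.06 (adjusted p = 0.0296). Wdr12, of the complex that processes large-subunit rRNA, rose by 0.27 ± 0.07 (adjusted p = 0.0388). Ddx21 and Mybbp1a, abundant nucleolar proteins, had differences of 0.17 ± 0.06 and 0.16 ± 0.07 and were not called (adjusted p = 0.118 and 0.144).

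The noncoding host genes of small nucleolar RNAs, whose transcripts also begin with TOP tracts, were not called higher. Of 11 tested 0 rose and 2 fell in the limma fit, where 5.08% of all genes were called higher and 4.97% lower. The median was 0.03, and with 11 genes a count of 0 called higher is near the share of all genes. None was higher at an unadjusted p under 0.05, by edgeR or by DESeq2, while 3 were lower at that unadjusted p. Snhg1 had 2079.7, 1725 and 1787 in the cKO libraries, against 2375, 2381 and 2295 in the WT libraries, and fell by 0.34 on the log2 scale (SE 0.07; adjusted p = 0.0170). Snhg8 had 891, 1005 and 921 in the cKO libraries, against 1049, 1139 and 1225 in the WT libraries, and fell by 0.27 (SE 0.08; adjusted p = 0.0454). Gas5 and Zfas1, the most abundant of the others, overlapped between groups, with differences of -0.03 ± 0.06 and 0.10 ± 0.08 (adjusted p = 0.819 and 0.418).

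Among 8 escorts of single ribosomal proteins 0 were called by limma, edgeR or DESeq2 and 1 had an unadjusted p under 0.05 in limma, with a median of -0.01. Nap1l1, Ipo9 and Bccip, the most abundant of these, had differences of 0.002 ± 0.06, -0.11 ± 0.06 and 0.13 ± 0.06. Of 19 genes that control TOP mRNAs or transcription of ribosomal genes 0 rose and 1 fell in limma, with a median of -0.01. This count is near the share of all genes called lower, 4.97%. At an unadjusted p under 0.05, 2 were higher and 3 lower. The 1 that fell was Myc, a transcription factor that drives ribosome production. It had 10666, 7501 and 10573 in the cKO libraries, against 13323, 11568 and 14087 in the WT libraries. It fell by 0.45 (SE 0.12; adjusted p = 0.0428) and was not called by DESeq2. Larp1 and Tia1 had differences of 0.0034 ± 0.07 and 0.15 ± 0.05 and were not called (adjusted p = 0.982 and 0.10). Of 14 genes of ribosome quality control 2 rose (14.3%, beside 5.08% of all genes called higher). The stress granule protein G3bp1 rose by 0.26 ± 0.07 (adjusted p = 0.0296) and Ascc2, of the complex that splits collided ribosomes, by 0.25 ± 0.06 (adjusted p = 0.0343). Abce1 and Gtpbp2, abundant members of that list, had differences of 0.23 ± 0.07 and -0.15 ± 0.06 and were not called (adjusted p = 0.0710 and 0.124).

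**Figure D5:**
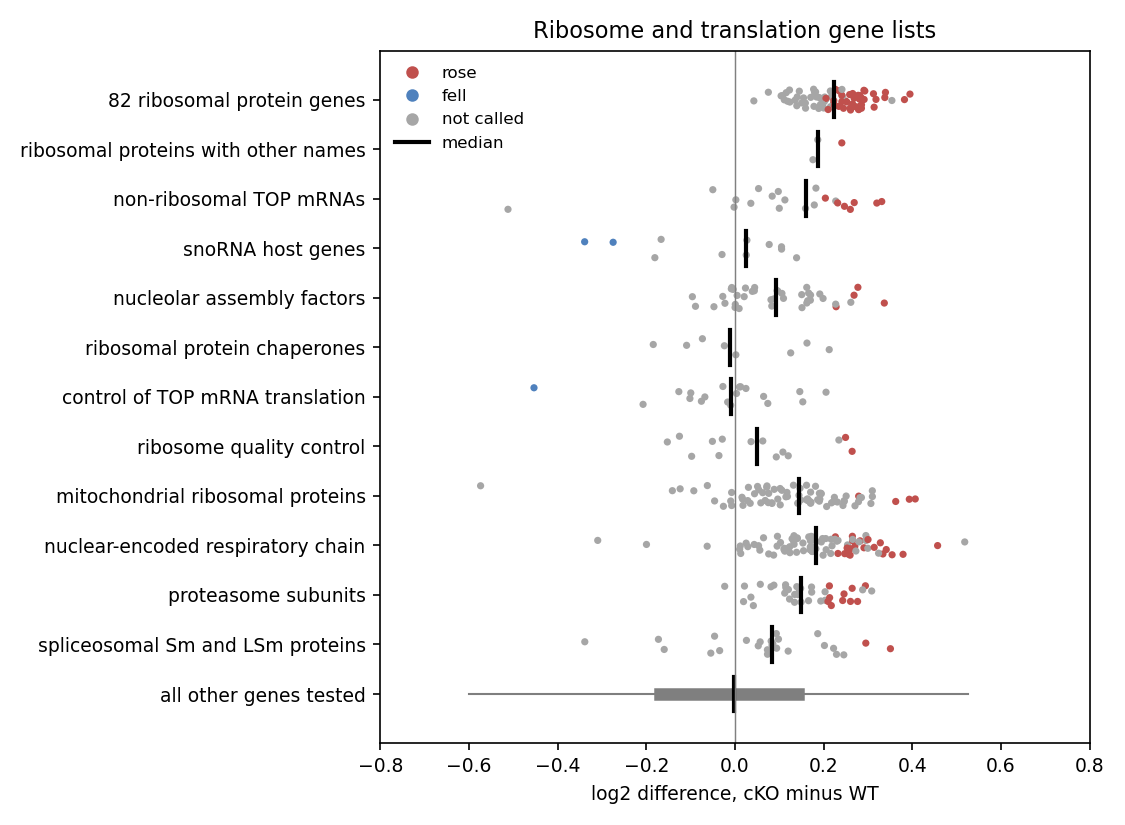
Log2 difference between cKO and WT (horizontal axis) for the genes of each list, 1 point per gene, red where the gene rose, blue where it fell and grey where it was not called, with the list's median as a black bar. The bottom row gives all other genes tested as the 25th to 75th (thick) and 5th to 95th (thin) percentiles, and the list medians run from -0.01 to 0.22.

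Other lists of small, widely expressed subunits, added after the values were seen, also had medians above 0. Of 83 nuclear-encoded respiratory chain genes 20 rose and 0 fell, with a median of 0.18, and of 38 proteasome genes 10 rose and 0 fell, with a median of 0.15. Of 78 mitochondrial ribosomal protein genes 4 rose and 0 fell (median 0.14), a share of 5.13% beside the 5.08% of all genes called higher, and of 25 spliceosomal Sm and LSm genes 2 rose and 0 fell (median 0.08). Reads of genes encoded in the mitochondrial genome were also taken as a share of the reads over all genes of the table. They made up 2.30 ± 0.0440% in cKO libraries and 2.15 ± 0.0799% in WT libraries (SD, n = 3 each).

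Summed markers of T cells were lower in every cKO library than in any WT library. The summed value of the 4 T cell markers analysed was 383 to 535 in cKO and 728 to 818 in WT, and 1 of the 4, Lck, fell (log2 difference -0.79 ± 0.13; adjusted p = 0.00534). Lck made up most of that sum, with 298, 441 and 368 in the cKO libraries and 686, 592 and 614 in the WT libraries. Cd4, Cd8a and Zap70 were also lower in every cKO library than in any WT library, but were not called. Cd4 and Cd8a had low values, at most 29.3 and 23.5 in any library. The 5 plasma cell markers (Tnfrsf17 was not analysed here) summed to 7390.5 to 8895 in cKO and 9243 to 13617 in WT, and 1 of them, Irf4, fell (log2 difference -0.71 ± 0.16; adjusted p = 0.0237). That call was lost without WT replicate 1 (adjusted p = 0.104), WT replicate 3 or cKO replicate 1. Irf4 made up most of that sum, and the other 4 summed to 2202 to 2593 in cKO and 2295 to 2732 in WT, which overlapped. The 7 erythroid markers summed to 5023, 1352 and 821 in cKO replicates 1, 2 and 3. In WT replicates 1, 2 and 3 they summed to 1392, 11103 and 682. The 9 monocyte and macrophage markers summed to 1194 to 1992 in cKO and 1336 to 2225 in WT. The 5 dendritic cell markers, of which Zbtb46 rose, summed to 300.4 to 409 in cKO and 311 to 355 in WT (Clec9a was not analysed here). The 2 neutrophil markers summed to 10.3 to 80.2 in cKO and 17.6 to 97.0 in WT. The erythroid, monocyte and neutrophil sums were highest in cKO replicate 1 and WT replicate 2. These libraries also had the highest share of ribosomal protein reads in their groups. The dendritic cell sum was highest in cKO replicate 1 and WT replicate 1, and the T cell sum in cKO replicate 2 and WT replicate 1. The plasma cell sum was highest in cKO replicate 3 and WT replicate 3. Of 7 follicular B cell markers 0 rose and 3 fell in limma, where 4.97% of all genes were called lower. By edgeR 0 of them rose and 2 fell, and by DESeq2 1 rose and 2 fell. Of 13 MZB cell markers 6 rose and 0 fell in limma, where 5.08% of all genes were called higher. By edgeR 6 of them rose and by DESeq2 7, and 0 fell by either. Cr2, which was not called, is in both lists.

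Among 3 immediate early genes and 1 heat-shock gene named after their values were seen, Jun, Fos and Hspa1b fell and Junb was not called. Jun had 9686, 6588 and 8427 in the cKO libraries, against 15955, 12531 and 15371 in the WT libraries, a log2 difference of -0.84 ± 0.13 (adjusted p = 0.00402). Fos had 5928, 4565 and 6262 in the cKO libraries, against 9117, 8079 and 9294 in the WT libraries, a log2 difference of -0.67 ± 0.10 (adjusted p = 0.00440). Junb had 6805, 8784 and 5883 in the cKO libraries, against 9432, 7729 and 8733 in the WT libraries, which overlapped, and its difference of -0.29 ± 0.12 was not called (adjusted p = 0.167). The mean of Hspa1b fell by 87.9% in cKO (adjusted p = 0.0371), a call lost without WT replicate 3 (adjusted p = 0.110), WT replicate 1, cKO replicate 1 or cKO replicate 3. It had 96.3, 218 and 209 in the cKO libraries, against 3082, 275 and 959 in the WT libraries, highest in WT replicate 1, which was the library with the lowest share of ribosomal protein reads. The part of these markers and genes in the difference of the ribosomal protein genes was not tested.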

How the data were processed

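The deposited table holds 1 value per gene and library for sorted MZB cells, 3 cKO and 3 WT libraries. The deposited values are a signal, the read count divided by a factor per library: every value was a whole multiple of the value of 1 read within 0.02 read, for 100.0% of values, and the factors matched DESeq2 size factors. The smallest value above 0 in cKO replicate 1 equals 2 reads. Tools named in the submitters' processing notes were bcl2fastq 2.17, Trimmomatic 0.36 and STAR 2.5.2b, with build mm9. The sources used here do not give the counter, annotation or strand setting, so reads shared with pseudogenes, copies or overlapping genes may be divided either way.

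Log2(value + 1) was fitted over all genes with a mean of at least 10 with limma 3.58.1 (R 4.3.3; trended moderation, genotype only), with Benjamini-Hochberg adjustment and a threshold of 0.05. edgeR 4.0.16 and DESeq2 1.42.0 were run on recovered reads. Only the limma fit was tested on simulated data. No outcome of that test is given here, so it is not used to judge the calls reported above. Alternatives were other pseudocounts, filters, scalings, moderation, a replicate block and each library left out. The members and lists were chosen with earlier results of these data known, and each list is described by counts and a median. Genes named were the 12 members with the smallest adjusted p, the 4 highest and 4 lowest differences, the 5 highest per kilobase, the paralogues with their standard genes, 8 with known roles, and in other lists up to 4 called and the 3 most abundant. GENCODE M21 named 14824 identifiers and left 40 without a name. Some single genes are not reported here.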

Additional observations from a re-analysis of the deposited data

How the results depend on the processing

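The median log2 difference of the 82 ribosomal protein genes was above 0 in every fit other than that rescaled to their own mean, from 0.18 to 0.28 with 1 library left out. Without the variance trend, limma called 119 genes higher and 96 lower in cKO, and 0 of the 82; the cause was not tested. With 1 library left out, 247 to 787 genes rose, 221 to 943 fell, and 3 to 51 of the 82 rose. The same replicate numbers do not mark shared mice in the labels, and same-numbered libraries did not deviate together (correlations -0.0745, -0.0200 and 0.147). With the number as a replicate block 767 genes rose, 784 fell, and 39 of the 82 rose. Larp1, Nap1l1, Gas5, Rplp2 and Rps27rt, none of them called, changed sign. Larp1 was at -0.0112 and -0.0109 with equal totals, without and with immunoglobulin genes, and at -0.0070 with upper quartiles. Nap1l1 was at -0.0126, -0.0124 and -0.0085 in those settings. With 1 library left out, Larp1 ran from -0.0660 to 0.0465, Nap1l1 from -0.0329 to 0.0421, Gas5 from -0.0879 to 0.0294, Rplp2 from -0.0016 to 0.104, and Rps27rt from -0.0493 to 0.284.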
